A study of Mus musculus with 221 samples.

Results

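To ask how the transcripts that serve the removal of paternal mitochondria vary between early embryos, and whether they differ with the diet of the father, 10 listed genes of mitophagy and of sperm mitochondria clearance were followed in single mouse embryos. The genes were Pink1, Mul1, Fundc1, Fundc2, Phb2, Sqstm1, Tollip, Gabarap, Map1lc3b and Endog, taken by name from a count table of 55291 genes. Early 2-cell embryos were made by in vitro fertilization and 1 library per embryo was made by Smart-seq2, a method for very small samples that primes on the poly(A) tail and amplifies the full-length cDNA. The sires were C57BL/6N males given food high in fat (HFD, high-fat diet) or low in fat (LFD, low-fat diet), per the study's methods, for 2 weeks from 6 weeks of age. The LFD group held 99 embryos and the HFD group 23 more. All embryos shared the same maternal background: oocytes came from superovulated C57BL/6N-mtST females aged 3 to 16 weeks, in which the nuclear genome is C57BL/6N and the mitochondrial genome is that of the Staudach (ST) line. Per the study's methods, frozen and thawed sperm of 4 males per diet was used, and each fertilization date had 1 HFD and 1 LFD male. Neither the sire nor the date nor the sex of an embryo is given in the labels, so a difference between diets cannot be told apart from a difference between these few sires, and p-values treat embryos as independent.

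Sperm bring mitochondria into the oocyte, and in most mammals these organelles and their DNA disappear during the first cleavages. One known route is mitophagy, in which the kinase PINK1 marks damaged mitochondria with phosphorylated ubiquitin, ubiquitin ligases such as MUL1 extend the mark, adaptors such as p62 bind it, and ATG8 proteins on the growing autophagosome membrane capture the cargo. Another route uses receptors that sit in the mitochondrial membranes and bind ATG8 proteins directly. Endonuclease G has been tied to the breakdown of sperm mitochondria in worms. At the early 2-cell stage most transcripts were made by the oocyte, and those of the embryo's own genome are beginning to appear. The values below are transcript levels and say nothing of the proteins that the oocyte already holds.

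Total counts per embryo ran from 1937251 to 17246791 (median 5706066) and between 11364 and 21638 genes had a count. All 10 genes of the oocyte marker list and all 13 of the 2-cell-stage marker list passed the filter on low counts, and no gene of either list differed between diets (edgeR, FDR threshold 0.05). Macrophage markers were present in part of the HFD libraries: the summed level of 15 such genes was 47.7, 96.7 and 7045 CPM (counts scaled to 1000000 per library) at the lowest, median and highest HFD embryo, and 43.8, 93.9 and 149.2 CPM in LFD embryos, and 17 HFD embryos lay above every LFD embryo. Of these 15 genes 7 passed the filter and 5 of them were higher in HFD embryos, while 6 had a median of 0 in each diet. C1qc, a complement gene of macrophages, had no count in any LFD embryo and a count in 10 HFD embryos, and Tyrobp had a count in 1 LFD and 12 HFD embryos. Other genes of the list were not divided in this way. Cd68 had a count in 91 and C1qb in 89 of 99 LFD embryos. Their medians were 3.05 and 5.59 CPM in HFD and 3.33 and 6.33 CPM in LFD embryos. Cumulus cell markers summed to at most 203.05 CPM in HFD and 59.4 CPM in LFD embryos, and none of 7 sperm transcripts passed the filter.

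Compared per length of exon, Fundc1 and Map1lc3b were the most abundant of the 10 transcripts and Pink1 and Fundc2 the least. FUNDC1 is an outer membrane receptor of mitochondria that binds ATG8 proteins, and its transcript had a median of 91.9 CPM per kb over all embryos, at percentile 97.3 of the 17531 genes with a median above 0. Map1lc3b, which encodes the ATG8 protein LC3B, followed with 52.8 CPM per kb, and on this scale it was below Fundc1 in the same embryo in 81% of embryos. The exon lengths used were 7517 bases for Map1lc3b and 2353 bases for Fundc1. Without division by length the order was reversed, with a median over all embryos of 396.6 CPM for Map1lc3b and 216.2 CPM for Fundc1. Between these and the scarce genes lay Phb2 (19.4 CPM per kb), Gabarap (18.6), Tollip (14.2), Endog (11.2), Mul1 (10.7) and Sqstm1 (9.91). In this middle order Phb2 exceeded Gabarap in 52.9% of embryos and Mul1 exceeded Sqstm1 in 52.9%, so these neighbours did not separate beyond the spread between embryos. Endog exceeded Mul1 in 57.9% of embryos. The step from Sqstm1 to Pink1 was clear, as Sqstm1 was higher in 99.5% of embryos, and Pink1 had a median of 0.436 CPM per kb, at percentile 15.6.

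Fundc1 and Fundc2, paralogs that both lie on the X chromosome, stood at opposite ends of this order. In GRCm38, Fundc1 lies at chrX:17556564-17572325 (minus strand) and Fundc2 at chrX:75382399-75396459 (plus strand). Fundc2 was nearly silent, with a count in 10.7% of HFD (13 embryos) and 8.08% of LFD embryos (8 of 99), a median of 0 in both diets and at most 11.2 CPM in any embryo. It did not pass the filter on low counts and was not tested further. Of the 31-base stretches of its transcripts 0.755% occurred in another gene. PINK1 is the kinase that starts ubiquitin-dependent mitophagy, and its gene lies at chr4:138313409-138326307 (minus strand), close to Mul1 at chr4:138434671-138442265 (plus strand). The Pink1 transcript had a count in 70.5% of HFD embryos, with values of 0, 0.873 and 7.30 CPM at the lowest, median and highest embryo, and in 75 of 99 LFD embryos, with values of 0, 1.51 and 10.6 CPM. The biological coefficient of variation of Pink1, which measures the spread between embryos beyond counting error, was 1.36, and 93.2% of all tested genes had a lower one. The opposite was true of Phb2, the inner membrane receptor prohibitin 2, whose coefficient of 0.298 was undercut by 7.07% of tested genes, and the other 7 tested members lay between 0.438 and 0.555. Genes as scarce as Pink1 had a fitted trend of 1.17. Pink1 was 1.15 times the trend at its level, against 1.40 times for Map1lc3b and 0.715 times for Phb2.

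**Figure D1:**
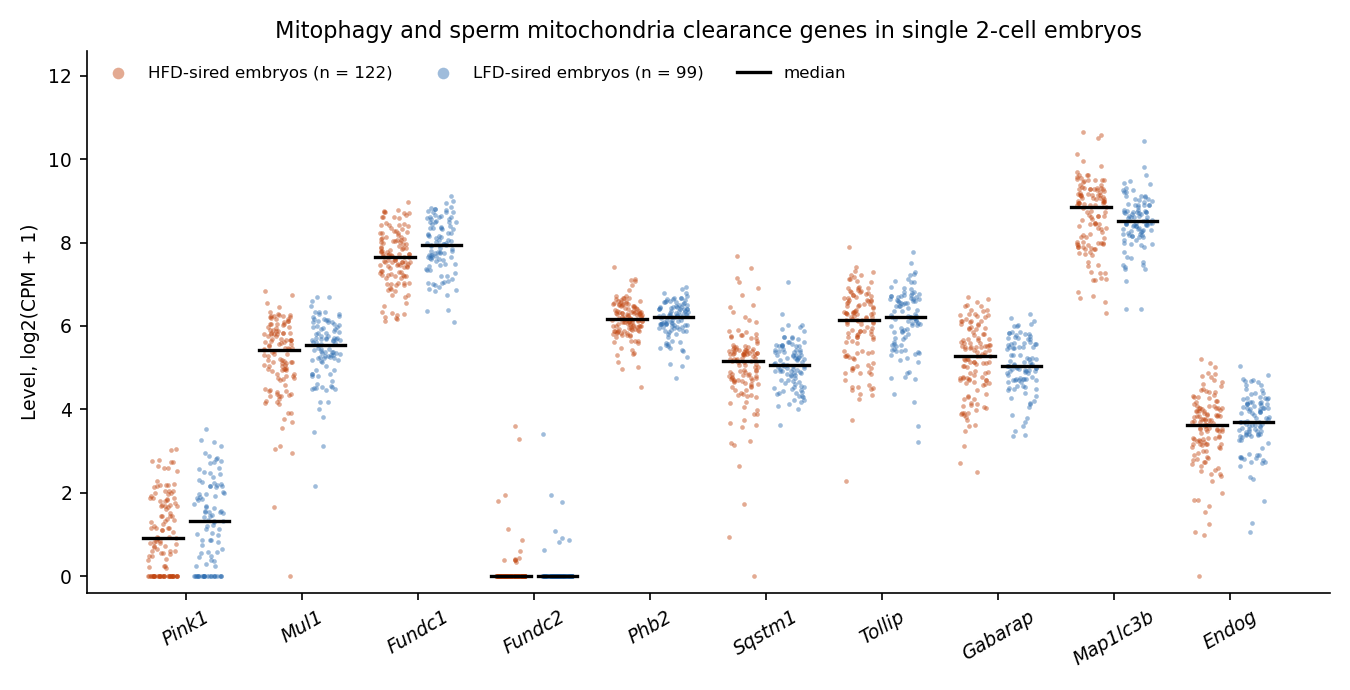
Level of each of the 10 genes in each embryo, as log2(CPM + 1), with 1 point per embryo, HFD in red and LFD in blue, and black bars at the medians. Fundc1 and Map1lc3b lie highest, Fundc2 is at 0 in most embryos, and the ranges of the 2 diets overlap for every gene.

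Some members share exon sequence with a gene on the other strand, and a protocol that does not mark strand cannot tell reads of the pair apart. Endog shared 379 bases (35.7% of its exons) with Spout1, Sqstm1 shared 580 bases (17.3%) with Mrnip, Phb2 shared 3.79% with Gm15884 and Map1lc3b shared 58 bases (0.772%) with Zcchc14. Over all embryos the rank correlation within diets was 0.82 for Endog and Spout1 and 0.77 for Phb2 and Gm15884, against 0.11 for Sqstm1 and Mrnip and 0.19 for Map1lc3b and Zcchc14. The values of Endog, Sqstm1, Phb2 and Map1lc3b are therefore uncertain as measures of those genes alone, to an extent that was not tested. Endog had a lower median than its partner (11.9 against 33.5 CPM). Phb2 (72.2 against 17.3 CPM), Sqstm1 (33.3 against 13.6 CPM) and Map1lc3b (396.6 against 26.8 CPM) had a higher one. Fundc1, Tollip and Gabarap shared no 31-base stretch with another gene. Of the 31-base stretches of Map1lc3b 8.64% occurred in transcripts of other genes, spread over 2452 genes. What this does to its counts was not tested.

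The first comparison asked whether the diet of the sire changed these transcripts. None of the 9 tested members differed between HFD and LFD embryos (edgeR quasi-likelihood test, Benjamini-Hochberg over 14820 genes, FDR threshold 0.05), where 2.15% of all tested genes did. DESeq2 and limma-voom called 0 of them as well, and 3 of 9 had an unadjusted p under 0.05 (Map1lc3b, Fundc1 and Gabarap), against 13.1% of all genes. The median log2 fold change of the members was -0.06, beside 0.01 over all tested genes.

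The pair of ATG8 genes, Map1lc3b at chr8:121590361-121598760 and Gabarap at chr11:69991143-69994951 (both plus strand), had positive fold changes that did not pass. Map1lc3b was at 78.6, 459 and 1604 CPM (lowest, median, highest) in HFD and at 83.7, 364 and 1375 CPM in LFD embryos. Gabarap was at 4.65, 37.8 and 102.8 CPM in HFD and at 9.21, 31.7 and 77.1 CPM in LFD embryos. For both genes the diets overlapped over nearly their whole range, and the HFD embryos reached further at both ends. The log2 fold change, HFD over LFD, was 0.28 ± 0.10 (SE) for Map1lc3b (edgeR, adjusted p = 0.125) and 0.25 ± 0.10 for Gabarap (adjusted p = 0.194). Macrophage markers moved with these values. All 17 HFD embryos that exceeded every LFD embryo in summed macrophage markers lay above the HFD median of Gabarap (44.42, 67.95 and 99.25 CPM at the lowest, median and highest), and 15 of 17 lay above that of Map1lc3b (277, 627 and 1446 CPM). Without these 17 embryos the fitted differences were 0.08 for Gabarap and 0.16 for Map1lc3b, and without the embryos numbered 31 to 70 of both diets (38 HFD and 39 LFD embryos) they were 0.09 and -0.02.

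For Fundc1 the fold change was negative and did not pass. Its values were 68.5, 201.8 and 503 CPM in HFD and 67.2, 245 and 550 CPM in LFD embryos. The bulk of the HFD embryos sat lower while the extremes nearly coincided. The log2 fold change was -0.23 ± 0.09 (SE), with an adjusted p of 0.154 in edgeR, and the difference of mean log2(CPM + 1) was -0.28 (2-sided permutation test of 100000 permutations, unadjusted p = 0.00186). When the embryos were divided into ranges of 10 consecutive numbers, HFD was below LFD for Fundc1 in 9 of 11 ranges that held both diets. HFD was above LFD for Gabarap in 9 ranges, for Map1lc3b and Phb2 in 8, for Sqstm1 in 6 and for Fundc2 in 5, and below it for Pink1, Mul1 and Endog in 8 and for Tollip in 7. The level of Y-linked transcripts moved with Fundc1, as described further below, and with that level as a covariate the fitted difference was -0.14 (adjusted p = 0.412).

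The ligase and kinase arm showed small differences beside a wide spread. MUL1 is a ubiquitin ligase of the outer membrane. Its transcript was at 0, 41.7 and 112.7 CPM in HFD and at 3.49, 45.5 and 103.03 CPM in LFD embryos, with a log2 fold change of -0.10 ± 0.10 (edgeR, adjusted p = 0.772). Pink1 had the largest fitted change of the members, -0.47, but also the largest error (SE 0.28, adjusted p = 0.491). Its 95% interval ran from -1.01 to 0.08, which includes 0, and the difference of mean log2(CPM + 1) was -0.26 (2-sided permutation test, unadjusted p = 0.0451).

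Among the adaptors and the inner membrane receptor, Phb2, at chr6:124712336-124716950 (plus strand), gave the smallest error. Phb2 was at 22.04, 70.98 and 168.9 CPM in HFD and at 26.1, 73.9 and 120.6 CPM in LFD embryos. The log2 fold change was 0.04 ± 0.06, with a 95% interval from -0.07 to 0.16. The ubiquitin-binding adaptor Tollip, at chr7:141874813-141918507 (minus strand), was at 3.91, 70.1 and 235 CPM in HFD and at 8.26, 72.8 and 216.6 CPM in LFD embryos, and its log2 fold change was -0.06 ± 0.10. Sqstm1, the gene of the adaptor p62 at chr11:50199366-50210827 (minus strand), was at 0, 34.5 and 203.4 CPM in HFD and at 11.4, 32.7 and 133.07 CPM in LFD embryos. The extremes lay further out in HFD embryos, with a standard deviation of log2(CPM + 1) of 1.06 against 0.56, while the quartiles were close, at 23.9 and 42.5 CPM in HFD and 24.9 and 42.1 CPM in LFD embryos. The log2 fold change of Sqstm1 was 0.17 ± 0.11 (edgeR, adjusted p = 0.552), and the difference of mean log2(CPM + 1) was -0.07 (2-sided permutation test, unadjusted p = 0.530), or -0.033 without HFD embryo 42. The fitted value was -0.03 without the 17 macrophage-high embryos and -0.04 with the macrophage level as a covariate. Endog, the gene of the mitochondrial endonuclease G at chr2:30171493-30174069 (plus strand), was at 0, 11.4 and 36.1 CPM in HFD and at 1.07, 12.1 and 31.8 CPM in LFD embryos, with a log2 fold change of -0.08 ± 0.11, and its partner Spout1 had -0.09 ± 0.10.

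**Figure D2:**
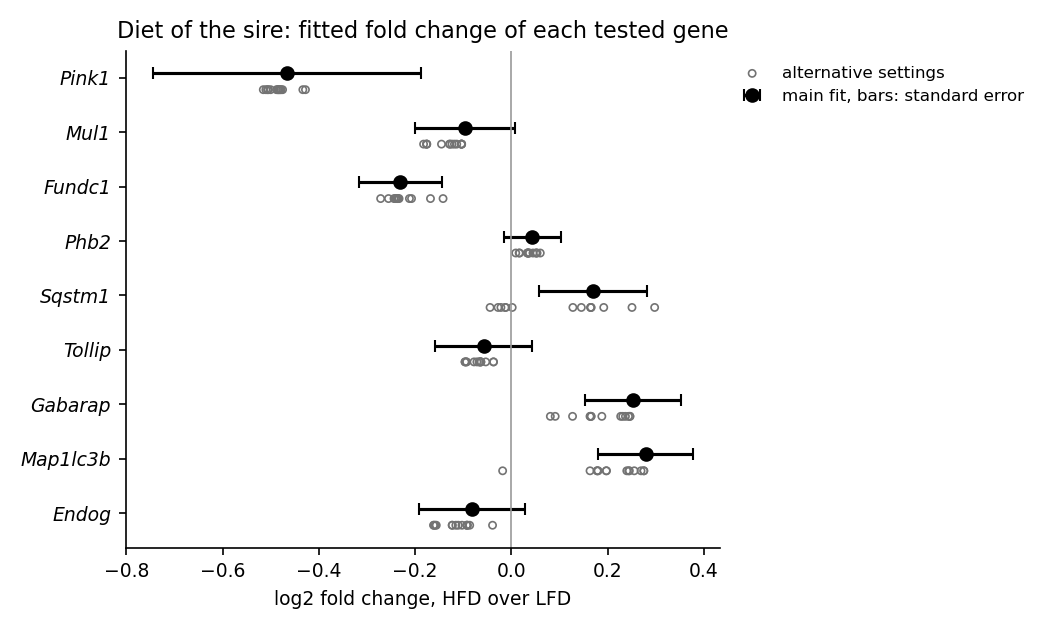
Fitted log2 fold change, HFD over LFD, of the 9 tested members, with filled points and standard errors from edgeR on all embryos and open circles for each alternative fit. Map1lc3b and Gabarap lie to the right and Fundc1 and Pink1 to the left, none passed the FDR threshold in the main fit, and Sqstm1 has circles on both sides of 0.

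A second comparison asked how the members vary with the amount of mitochondrial mRNA in the same embryo, taken as the log2 of the summed CPM of the 13 mitochondrial mRNAs. On this log2 scale the lowest and highest HFD embryos were at 14.3 and 17.3, and the lowest and highest LFD embryos at 13.8 and 16.7. The mean was 15.53 (SD 0.47) in HFD and 15.17 (SD 0.48) in LFD embryos, a difference that was not tested. With diet as a covariate, 4 of 9 members had a slope past the threshold, 3 positive and 1 negative, where 35% of all tested genes had one (18.9% positive and 16.2% negative), so the share was near that of all genes. Both ATG8 genes rose with mitochondrial mRNA: Gabarap by 0.64 ± 0.10 (SE) and Map1lc3b by 0.63 ± 0.08 per log2 unit, that is per doubling, with adjusted p-values of 1.03e-08 and 6.50e-11 in edgeR. Of all tested genes, 6.05% had a steeper slope in either direction than Gabarap. Mul1 rose by 0.34 ± 0.12 (edgeR, adjusted p = 0.0152) and Sqstm1 fell by 0.30 on the log2 scale (SE 0.12, adjusted p = 0.0433). Tollip had a slope of -0.24 ± 0.12 (adjusted p = 0.104), and Fundc1, Phb2, Pink1 and Endog had slopes from 0.06 to 0.11 that did not pass. This level had r = -0.41 with the number of detected genes in HFD embryos and 0.08 in LFD embryos, given as a description. With that number as a covariate the same 4 members and Fundc1 passed, where 4686 of 14795 genes did. Both levels come from the same library and are shares of its total. With library sizes taken from nuclear genes alone the same 4 members passed, where 5160 of 14805 genes did. In that fit the mitochondrial mRNA level was still a share of total counts, so the fit does not remove this dependence.

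Gabarap and Map1lc3b kept this slope in every alternative tried, with ranges of 0.57 to 0.67 and 0.37 to 0.84. Within HFD embryos alone the slope of Map1lc3b was 0.84 and within LFD embryos alone 0.37, and the difference of 0.47 ± 0.17 did not pass an interaction test over all genes (edgeR, adjusted p = 0.254). None of the 9 members passed that test (2 had an unadjusted p under 0.05, Map1lc3b and Phb2), where 0.23% of all genes did. Within HFD embryos alone Gabarap and Map1lc3b passed, where 21.5% of all genes did, and within LFD embryos alone the same 4 as in all embryos, where 20.2% did. Mul1 did not pass within HFD embryos alone (slope 0.17) and passed within LFD embryos alone (0.56), and it did not pass in limma-voom with number ranges within diet as a block (0.33), and Sqstm1 kept a negative slope in each alternative (-0.45 to -0.13) but missed the threshold within HFD embryos alone, with RLE scaling, with the stage ratio described next as a covariate, without embryos 31 to 70 and without the 8 embryos with few detected genes, where its slope was -0.13.

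The next comparison took the progress of genome activation as the log2 ratio of summed 2-cell-stage over summed oocyte transcripts, which was -0.72 ± 0.68 (SD over all HFD embryos) in HFD and -0.85 ± 0.49 (SD, n = 99) in LFD embryos. The ratio went with the number of detected genes (r = -0.58 in HFD and -0.34 in LFD embryos) and with the mitochondrial mRNA level (r = 0.33 and 0.19) over the embryos of each diet, given as a description. Along this ratio 3 of 9 members rose and none fell, where 33.4% of all genes had a slope past the threshold (16.3% rose and 17.1% fell). Map1lc3b rose by 0.57 ± 0.07 per log2 unit (edgeR, adjusted p = 3.75e-13), with a steeper slope in 4.68% of tested genes, Gabarap by 0.37 ± 0.08 (adjusted p = 0.000164) and Endog by 0.34 ± 0.11 (adjusted p = 0.00867). Spout1, which shares exon bases with Endog, had a slope of 0.23 (adjusted p = 0.0493). Pink1 had the steepest negative slope, -0.61 ± 0.30, which did not pass (adjusted p = 0.105), nor did those of Fundc1 (-0.16), Sqstm1 (-0.16), Mul1 (0.15), Phb2 (-0.07) and Tollip (0.06). When the ratio was built from 2-cell-stage transcripts other than the Zscan4 genes, 6 members passed, with Mul1 and Tollip added among those that rose and Phb2 as one that fell. More of all genes passed in that fit as well, 7683 of 14797 against 4949 of 14797 in the main fit. Without the 8 embryos with few detected genes Mul1 (0.27) and Phb2 (-0.13) were added, where 4943 of 14884 genes passed. With the number of detected genes as a covariate Phb2 was added, where 4126 of 14797 genes passed. Within HFD embryos alone Map1lc3b and Gabarap passed (25.6% of all genes did), and within LFD embryos alone Map1lc3b did (8.02% of all genes). For no member did the slopes of the diets differ past the threshold (edgeR, 0 of 9, 1 with an unadjusted p under 0.05, Map1lc3b), where 0.00676% of all genes did.

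**Figure D3:**
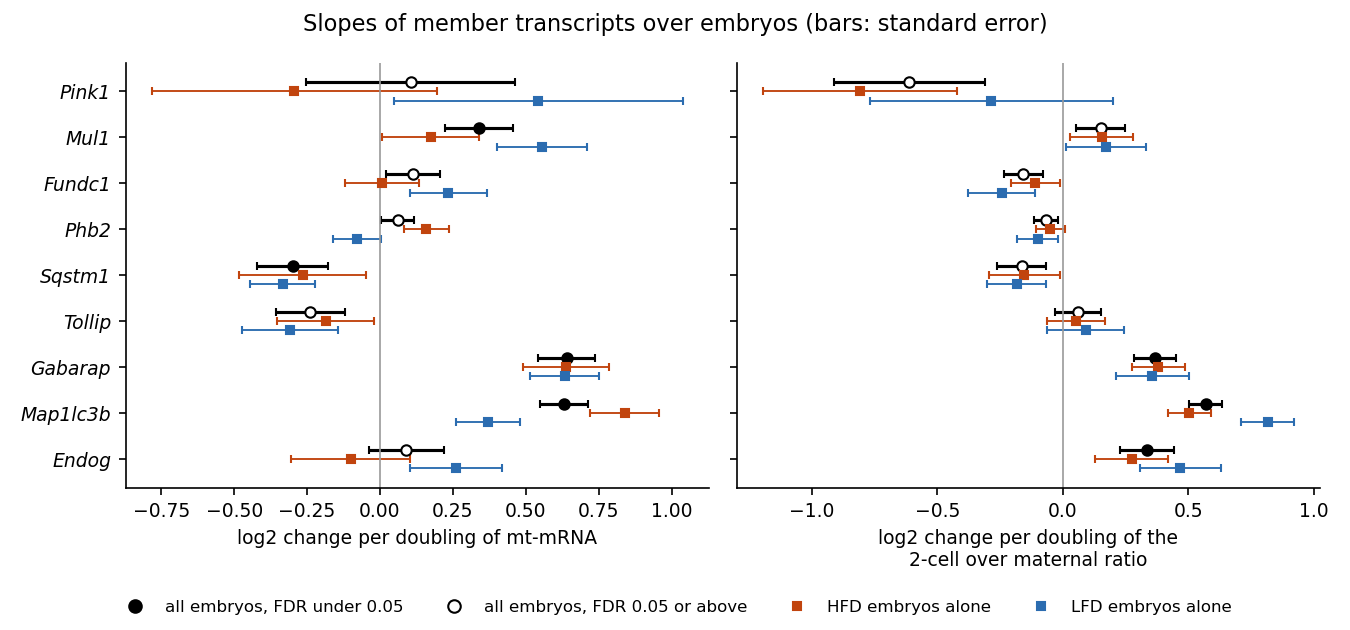
Slope of each tested member on the level of mitochondrial mRNA (left) and on the ratio of 2-cell-stage over oocyte transcripts (right), in log2 change per doubling, with standard errors. Gabarap and Map1lc3b lie to the right of 0 in both panels, in all embryos and in each diet alone, while Sqstm1 lies to the left.

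The promoters of the 3 members that rose with mitochondrial mRNA are shown because these genes also varied together between embryos. The RefSeq windows on GRCm38.p6 hold the 250 bases before and 50 after the annotated start, each read 5′ to 3′ on the strand of the gene, at chr4:138434422-138434721 (plus strand) for Mul1, chr11:69991120-69991419 (plus strand) for Gabarap and chr8:121590188-121590487 (plus strand) for Map1lc3b. Capitals mark matches on either strand to any of 4 motifs. They were the E-box CACGTG, the ETS motif CCGGAAG, the GC box GGGCGG and the TATA box, spelled TATAAA. None of these words overlaps another in the windows shown.
Mul1: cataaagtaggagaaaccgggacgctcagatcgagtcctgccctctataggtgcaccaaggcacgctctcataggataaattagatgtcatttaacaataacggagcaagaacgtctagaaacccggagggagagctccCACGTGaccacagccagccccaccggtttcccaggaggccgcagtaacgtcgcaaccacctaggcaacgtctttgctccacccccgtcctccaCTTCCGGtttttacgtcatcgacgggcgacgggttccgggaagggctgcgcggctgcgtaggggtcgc
Gabarap: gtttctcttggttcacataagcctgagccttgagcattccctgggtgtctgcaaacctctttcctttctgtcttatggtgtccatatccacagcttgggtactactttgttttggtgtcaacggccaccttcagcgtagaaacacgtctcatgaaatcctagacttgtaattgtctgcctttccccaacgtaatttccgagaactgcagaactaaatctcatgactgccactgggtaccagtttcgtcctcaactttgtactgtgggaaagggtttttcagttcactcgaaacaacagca
Map1lc3b: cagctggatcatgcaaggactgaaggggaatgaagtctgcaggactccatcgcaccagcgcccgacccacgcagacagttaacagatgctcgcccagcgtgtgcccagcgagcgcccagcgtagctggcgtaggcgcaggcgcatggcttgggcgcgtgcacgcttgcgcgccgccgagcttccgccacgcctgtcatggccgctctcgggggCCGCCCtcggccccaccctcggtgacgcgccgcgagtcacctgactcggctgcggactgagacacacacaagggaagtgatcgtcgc
Mul1 held an E-box at position -111 from the start and an ETS motif at position -18, Map1lc3b a GC box at position -37, and Gabarap no match. An E-box was found in 7.15%, an ETS motif in 8.86%, a GC box in 35.7% and a TATA box in 13.6% of 32851 windows. No motif searched was common to the 3 windows. Their shares of G and C differed as well, at 58% for Mul1, 45.7% for Gabarap and 68% for Map1lc3b, against a median of 52.7% over all windows. In all 3 windows, by 1 base for Mul1 and by more for Map1lc3b and Gabarap, the RefSeq start lies inside the gene of the count table, downstream of its first base.

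Levels of the members were then compared with each other between embryos. Of the 36 pairs of tested members, 10 in HFD and 7 in LFD embryos passed permutation tests of both Pearson's r and Spearman's rho (adjusted over the 72 tests of each), all with positive sign, and 6 pairs passed in both diets. The median r over the pairs was 0.13 in HFD and 0.08 in LFD embryos, beside 0.03 in each over all pairs of tested genes, whose 95th percentile was 0.34 and 0.35. Points of all genes share the library and its depth. Gabarap and Map1lc3b had the highest values of all pairs in HFD embryos (r = 0.72, rho = 0.74, and r = 0.72 without the 2 embryos farthest from the median). In LFD embryos the pair had r = 0.55 and rho = 0.51 (r = 0.51 without 2), where Mul1 with Map1lc3b had a higher r and Mul1 with Gabarap a higher rho. The adjusted permutation p of this pair, 8.00e-05 in both diets, was the smallest reached and was shared by other pairs. Mul1 went with Map1lc3b (r = 0.40 and 0.56), with Gabarap (0.43 and 0.54), with Tollip (0.36 and 0.51) and with Endog (0.45 and 0.40), each past both tests in HFD and in LFD embryos. Endog and Map1lc3b made the sixth pair (0.24 and 0.43). Some passing pairs lay below the 95th percentile of all pairs. In HFD embryos these were Endog with Map1lc3b (0.24), Endog with Gabarap (0.32), and Tollip with Gabarap (0.30) and Map1lc3b (0.31). In LFD embryos it was Sqstm1 with Tollip (0.31). The share of all gene pairs that would pass was not tested.

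Sqstm1, Pink1, Phb2 and Fundc1 were in none of the 6 pairs that passed in both diets. Tollip was in them only with Mul1. In LFD embryos its r with Gabarap (0.08), Endog (0.21) and Map1lc3b (0.24) did not pass the test of r. Sqstm1 had r from -0.24 to 0.27 with the others in HFD embryos, and the value of 0.26 with Mul1 dropped to 0.09 without the 2 embryos farthest from the median of Mul1. In LFD embryos Sqstm1 went with Tollip, another ubiquitin-binding adaptor (r = 0.31, rho = 0.26, adjusted permutation p = 0.00762 and 0.0409). Phb2 had a negative r with Map1lc3b in LFD embryos (-0.28), which passed the test of r but not that of rho. Without the 8 embryos with few detected genes this r was -0.37, and 9 LFD pairs passed both tests, 8 positive and 1 negative, with 8 pairs passing in both diets.

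**Figure D4:**
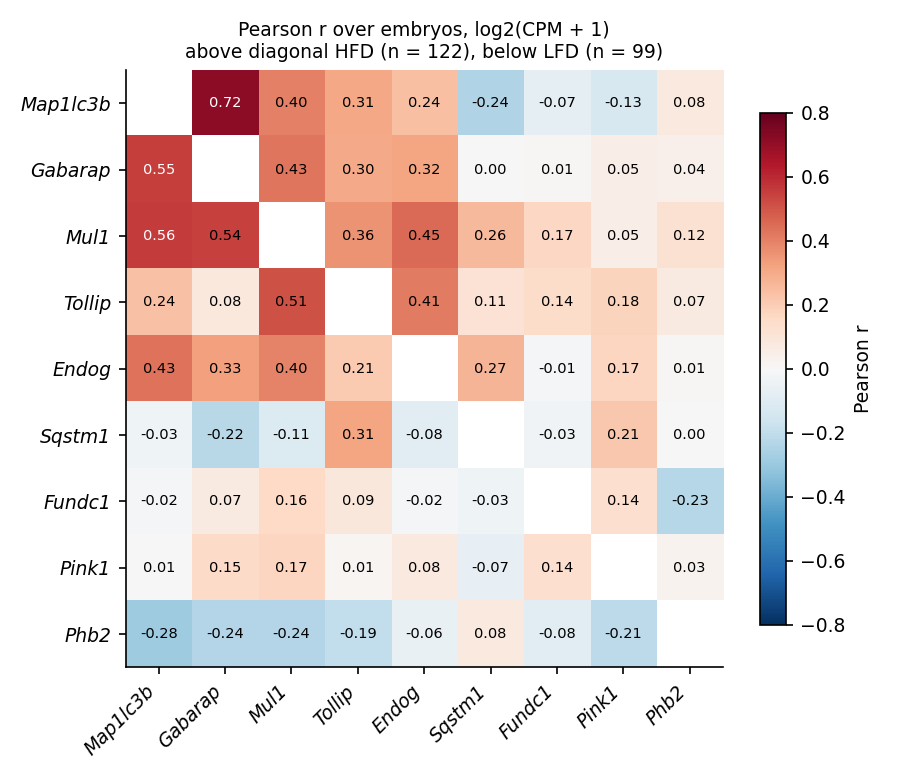
Pearson's r of log2(CPM + 1) between the 9 tested members, over HFD embryos above the diagonal and LFD embryos below it. Pairs among Map1lc3b, Gabarap, Mul1, Tollip and Endog have positive values, from 0.24 to 0.72 in HFD embryos and between 0.08 and 0.56 in those of LFD fathers, and pairs with the other 4 genes reach 0.27 in HFD and 0.31 in LFD embryos.

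For each tested member the genes most like it in rank over all embryos, after centring within diets, were listed as a description. Map1lc3b was followed most closely by Polr1c (rho 0.90), a subunit of RNA polymerases I and III, by Calm2 (0.90), a calmodulin gene, and by Dnajb9 (0.89), a chaperone of the endoplasmic reticulum. Gabarap was closest to Cd63 (0.72), a tetraspanin of late endosomes, and to the ribosomal protein genes Rpl21 (0.71) and Rpl6 (0.70), and least like Rab7 (-0.70), the small GTPase of late endosomes. Among the genes closest to Mul1 were Kti12 (0.73) and Rrp9 (0.71). The likeness of Tollip was highest for Unc119b (0.65), the cathepsin gene Ctsc (0.64) and Tedc1 (0.64). For Sqstm1 the values were lower, with Psap, the prosaposin gene, at 0.35, the proton pump subunit Atp6v1a at 0.34 and the interferon receptor Ifnar1 at 0.33. Pink1 had no rho above 0.34 (Gm38058, Gm42501 and Gm47641), Phb2 came next to Gm15884 on its other strand with Bscl2 (0.36) and Gpr180 (0.35), and Endog came next to Spout1 with Msto1 (0.52) and Rrp7a (0.51).

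Fundc1 had a pattern of its own. Its 3 most similar genes were Rbmx2 (rho 0.68), Tex13b (0.62) and Tceal7 (0.58), which lie on the X chromosome as Fundc1 does, and its least similar gene was Uty (-0.53), which lies on the Y chromosome. Female embryos carry an X chromosome from each parent and male embryos carry 1 X and 1 Y, and the labels do not give the sex. The summed level of 6 Y-linked genes, as log2(CPM + 0.5), fell into a low and a high cloud, with a median of 5.11 in HFD (lowest -1, highest 7.13) and 3.57 in LFD embryos (lowest -1, highest 6.71). None of the 5 Y-linked genes tested differed between diets (edgeR).

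A slope on that Y-linked level, with diet as a covariate, was added after this pattern was seen. Fundc1 fell by 0.13 on the log2 scale per log2 unit (SE 0.01, adjusted p = 4.25e-16 in edgeR), and it fell in each diet alone. Of the 9 members it was the only one past the threshold, where 1.69% of all genes passed. Among 486 tested X-linked genes 44% were called, all of them downward, and the median slope was -0.08, beside 0.00 for the other genes, of which 0.251% were called. Of the X-linked genes 21.8% had a lower slope than Fundc1. With this test chosen on the same embryos, its p is a description of the pattern and not independent evidence.

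**Figure D5:**
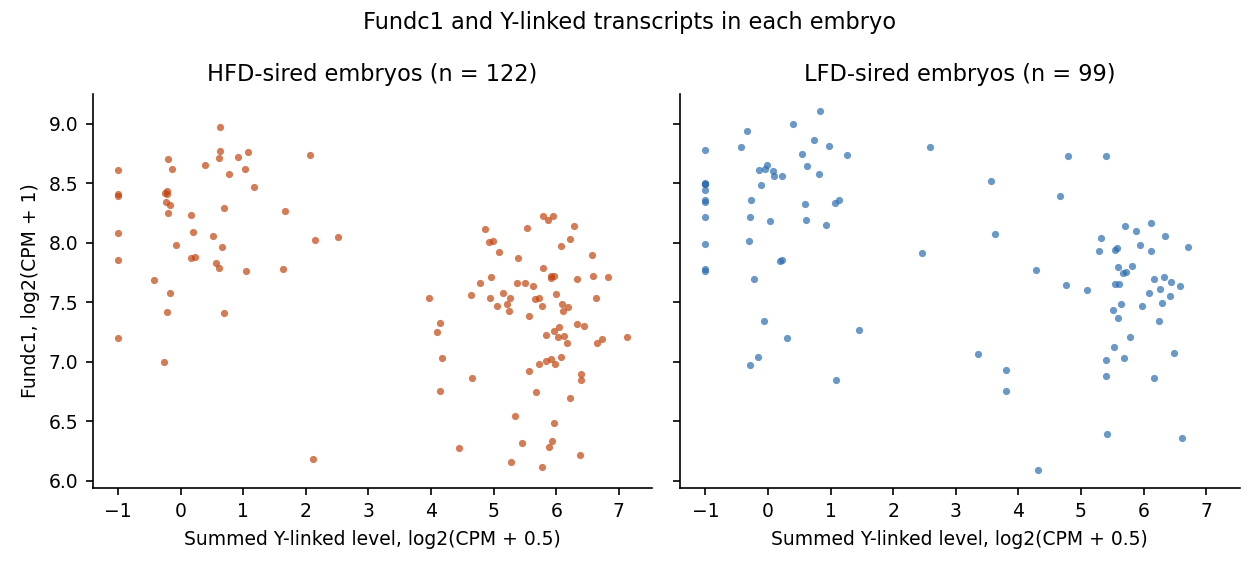
Fundc1, as log2(CPM + 1), against the summed level of 6 Y-linked genes, as log2(CPM + 0.5), in each HFD embryo (left) and LFD embryo (right). Embryos form a cloud at low and a cloud at high Y-linked level, and Fundc1 sits lower in the second, with overlap between the clouds.

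The wider machinery was taken from 8 lists of 90 further genes, of which 86 were tested. With diet, 2 of the 86 passed, where 2.15% of all tested genes did, so the share was near that of all genes. Both were lower in HFD embryos, where 0.891% of all genes were lower. Ambra1, a regulator of autophagy and mitophagy, was at 8.60, 45.98 and 127.2 CPM in HFD and at 0, 61.03 and 162.6 CPM in LFD embryos, with a log2 fold change of -0.36 ± 0.10 (edgeR, adjusted p = 0.0229). Opa1, the fusion protein of the inner membrane, was at 13.3, 86.4 and 176.4 CPM in HFD and at 16.5, 112.2 and 172.9 CPM in LFD embryos, with -0.26 ± 0.07 (adjusted p = 0.0100). Ranges of both genes overlapped between diets. Both calls were lost without the 17 macrophage-high embryos (adjusted p = 0.0884 for Ambra1 and 0.0582 for Opa1), without embryos 31 to 70 (0.585 and 0.614) and in limma-voom with number ranges as a block within diet (0.368 and 0.0767), and that of Ambra1 also in limma-voom without a block (0.126) and with the Y-linked level as a covariate (0.0526). The fitted differences were then -0.34 for Ambra1 and -0.23 for Opa1 without the macrophage-high embryos, -0.25 and -0.19 without embryos 31 to 70, and -0.33 and -0.27 with ranges within diet as a block. The median log2 fold change of the 86 genes was -0.04, beside 0.01 over all genes.

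No other gene of the lists passed with diet (adjusted p from 0.131 upward among those named here). The smallest p-values that did not pass belonged, in the ubiquitin list, to the porin Vdac1 (-0.20 ± 0.07), among receptors to Bnip3 (0.12 ± 0.10) and Bcl2l13 (-0.07 ± 0.06), among adaptors to Nbr1 (-0.14 ± 0.05) and Optn (-0.30 ± 0.16), in the core machinery to Atg2a (-0.27 ± 0.11) and the lipid scramblase gene Atg9a (-0.27 ± 0.11), in lysosomal fusion to Vps33a (0.34 ± 0.17) and Plekhm1 (-0.17 ± 0.09), in mitochondrial dynamics to Mief1 (-0.15 ± 0.08), and among mitochondrial DNA factors to the polymerase gene Polg (-0.29 ± 0.12) and the nuclease gene Mgme1 (0.17 ± 0.10).

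On the mitochondrial mRNA level 11 of the 86 genes rose and 27 fell, where 18.9% of all genes rose and 16.2% fell, and their median slope was -0.12, beside 0.03 over all genes. Counted without the members, both tested ATG8 genes rose, Gabarapl2 by 0.58 ± 0.09 (edgeR, adjusted p = 3.58e-08) and Map1lc3a by 0.25 ± 0.10 (adjusted p = 0.0386). Of the 6 further adaptors 3 fell and none rose, with Nbr1 at -0.45 ± 0.05 (adjusted p = 1.76e-12). In mitochondrial dynamics 6 of 8 fell, Opa1 by 0.36 and Mief1 by 0.42, and 1 rose. Of the ubiquitin list 2 of 17 rose and 6 fell, and of the core machinery 4 of 26 rose and 6 fell. Of the 6 further receptors 1 fell, of the 15 lysosomal fusion genes 5 fell, none of either list rose, and of the 6 further mitochondrial DNA factors 2 rose and none fell. No list was tested as a whole, nor was any difference between lists. Along the stage ratio 9 of the 86 genes rose and 27 fell, where 16.3% of all genes rose and 17.1% fell. Gabarapl2 rose by 0.33 ± 0.08 (edgeR, adjusted p = 0.000694), while Map1lc3a had -0.13 ± 0.08 and did not pass. Of the 6 further adaptors 4 fell and none rose, and Ambra1 fell by 0.37.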

How the data were processed

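RNA of single embryos was sequenced after Smart-seq2 amplification. Per the labels and the study's methods, the authors trimmed reads with Trim Galore 0.6.6 and aligned them to GRCm38 with STAR 2.7.10a. Per the methods, the mitochondrial sequence of that reference was first exchanged for that of the ST line. The authors deposited raw counts per gene, made, per the file headers, with featureCounts 2.0.3 on exons by gene name with strand setting 2. Smart-seq2 does not mark strand. Columns were mapped to embryos by their labels. The PCR reads carry no molecular identifiers. Of the counts above 0, 65.8% were even numbers, the cause of which was not tested. The members and lists were chosen with earlier results of these data known. The Y-linked slope, the slope differences and the fits without macrophage-high embryos, without embryos 31 to 70 or with number ranges within diet as a block were chosen after seeing the data.

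Counts were fitted in R 4.3.3 with the quasi-likelihood test of edgeR 4.0.16 after TMM scaling and a filterByExpr filter on diet groups. P-values were adjusted over all tested genes by Benjamini-Hochberg, with a threshold of 0.05. DESeq2 1.42.0 and limma 3.58.1 (limma-voom, also with embryo numbers as a block) were alternatives, as were RLE or total-count scaling, no filter, covariates and subsets of embryos. The edgeR fit on diet, an edgeR slope fit and limma-voom on diet without a block were tested on simulated data. The other fits were not. Levels are CPM of total counts, and log2 differences of CPM used a pseudocount of 1. Permutation tests were 2-sided. Named were all 10 members, each list gene called with diet, the 2 genes of smallest p in each list, and the 3 genes most like each member, of which 1 is not reported here. Genes with a slope named beside them follow the same rule. Promoters were taken from RefSeq by symbol, and all 10 members had a window.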

Additional observations from a re-analysis of the deposited data

How the results depend on the processing

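With diet, 0 members passed in edgeR as reported and in each alternative but 1, including DESeq2 and limma-voom (3 had an unadjusted p under 0.05 in edgeR). Without the filter on low counts 2 passed, Fundc1 and Map1lc3b, where 15.4% of all genes did. The diet difference of Sqstm1 changed sign in limma-voom (-0.012), with embryo numbers as a block (-0.013), with number ranges as a block (-0.022), with the macrophage level as a covariate (-0.044) and without the 17 macrophage-high embryos (-0.028), and that of Map1lc3b without embryos 31 to 70 (-0.018). Leaving out each embryo in turn kept the sign of the difference of mean log2(CPM + 1) for 8 of 10 members, while Fundc2 ran from -0.017 to 0.046 and Phb2 from -0.015 to 0.013 (the permutation test was not repeated). On mitochondrial mRNA, HFD embryos alone left 2 members called, where 21.5% of all genes were. Slopes changed sign for Pink1 (-0.29 in HFD embryos alone, -0.087 with number ranges as a block, -0.068 with ranges within diet), Phb2 (-0.078 in LFD embryos alone, -0.028 with number ranges and -0.031 with ranges within diet as a block) and Endog (-0.013 with the stage ratio as a covariate, -0.10 in HFD embryos alone). On the stage ratio the count of members called was 1 in LFD embryos alone, 5 without embryos 31 to 70, 5 without the embryos with few detected genes and 6 without the Zscan4 genes in the ratio. Of all genes, these fits called, in the same order, 1186 of 14797, 4232 of 15078, 4943 of 14884 and 7683 of 14797. The main fit called 4949 of 14797. The stage slope of Fundc1 changed sign without the Zscan4 genes (0.14) and with detected genes as a covariate (0.0075). On the Y-linked level Pink1 (-0.0071 in LFD embryos alone, -0.0075 with ranges within diet as a block), Sqstm1 (-0.022 in LFD embryos alone) and Phb2 (0.0017 in HFD embryos alone) changed sign. Of the wider lists 1 gene passed with number ranges as a block and 0 with ranges within diet as a block (limma-voom). The cause was not tested for any of these.

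Both diets number their embryos, and 94 numbers occur in both. Same-numbered embryos did not deviate together: the correlation of their deviations had a median of 0.0061, 17 of 94 were over 0.1, and 1 HFD embryo correlated best with its own number. With the number as a replicate block 0 members were called, and 343 genes of all in place of 318. Ranges as a block gave 394 genes and ranges within diet 86. Scaling moved the split of all diet calls from 58.5% higher with TMM to 48.8% with RLE and 30.5% with total counts, and none of these called a member. Many embryos had no count of Pink1 or Fundc2, and whether depth or a low level sets this was not tested.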
